A study of Homo sapiens with 4 samples.

Results

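The genes described here form the amino acid response governed by the transcription factor ATF4, together with the transporters that bring amino acids and short peptides into the cell. The list holds 40 genes chosen by name, and 38 of them had a row among the 19555 named genes of the arrays. SLC15A4, a lysosomal histidine and peptide transporter, and the antisense RNA VLDLR-AS had no row of their own name and were not analysed here. The 4 samples, run on Affymetrix Human Gene ST arrays, were cultures of U87MG, a widely used cell line derived from a human malignant glioma. The 2 L243P samples came from a single clone carrying a form of membrane alanyl-aminopeptidase (CD13/APN, gene ANPEP) that the labels call inactive, and the 2 wild-type samples from another single clone carrying the wild-type enzyme, both in constructs whose names include EGFP. The promoter of the constructs is not given in the sources used here, and a line without a construct was not analysed here. Genotype and clone cannot be told apart in this design, and the p-values measure the spread between the 2 independent experiments done with each clone. Values are normalized intensities on a linear scale, and a change is the log2 ratio of L243P to wild type, given with its standard error (SE) or 95% interval from a limma fit over all rows; a gene was called at an adjusted p under 0.05.

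APN cuts single amino acids from the N-terminus of peptides outside the cell. When amino acids run short, uncharged tRNA activates the kinase GCN2, which phosphorylates the initiation factor eIF2alpha. General translation slows while translation of ATF4 increases, and ATF4 then switches on amino acid synthesis, uptake and tRNA charging. ATF4 is controlled largely at translation, so its own mRNA need not follow its activity. The comparison asks whether the mRNAs of this response differ between the clones.

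No gene of the list was called in either direction, and the list as a whole was centred close to 0. Of the 38 measured genes, 0 were called, against 0.967% of all genes, and the smallest adjusted p was 0.091 (limma, PHGDH). The median log2 change was -0.03, against -0.02 over all genes. At an unadjusted p under 0.05 stood 9 of the 38 genes (23.7%), 5 higher and 4 lower in L243P, against 13.5% of all genes. With limma's default prior, which called no gene on the whole array, 6 did (15.8%), close to the 14.2% of all genes in that fit. When only the brighter 50% of the rows were fitted, 8 of the 34 genes of the list that remained did, against 2115 of all 11954 genes that remained. The intensities of the L243P and wild-type arrays did not overlap for 21 genes (55.3%, against 38.0% of all genes). Both L243P arrays lay above both wild-type arrays for 9 of them (23.7%, against 17.0% of all genes) and below for 12 (31.6%, against 20.9%). The size of the log2 change was under 0.2 for 26 of the 38 genes, and for 13851 of all 19555 genes. Its median was 0.13, close to the 0.12 over all genes. The log2 changes ranged from -0.56 for SLC7A11 to 0.54 for CTH. The median SE was 0.12, against 0.13 over all genes. The members were selected with earlier results of these arrays known, so these shares describe the list and are no test of it.

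**Figure D1:**
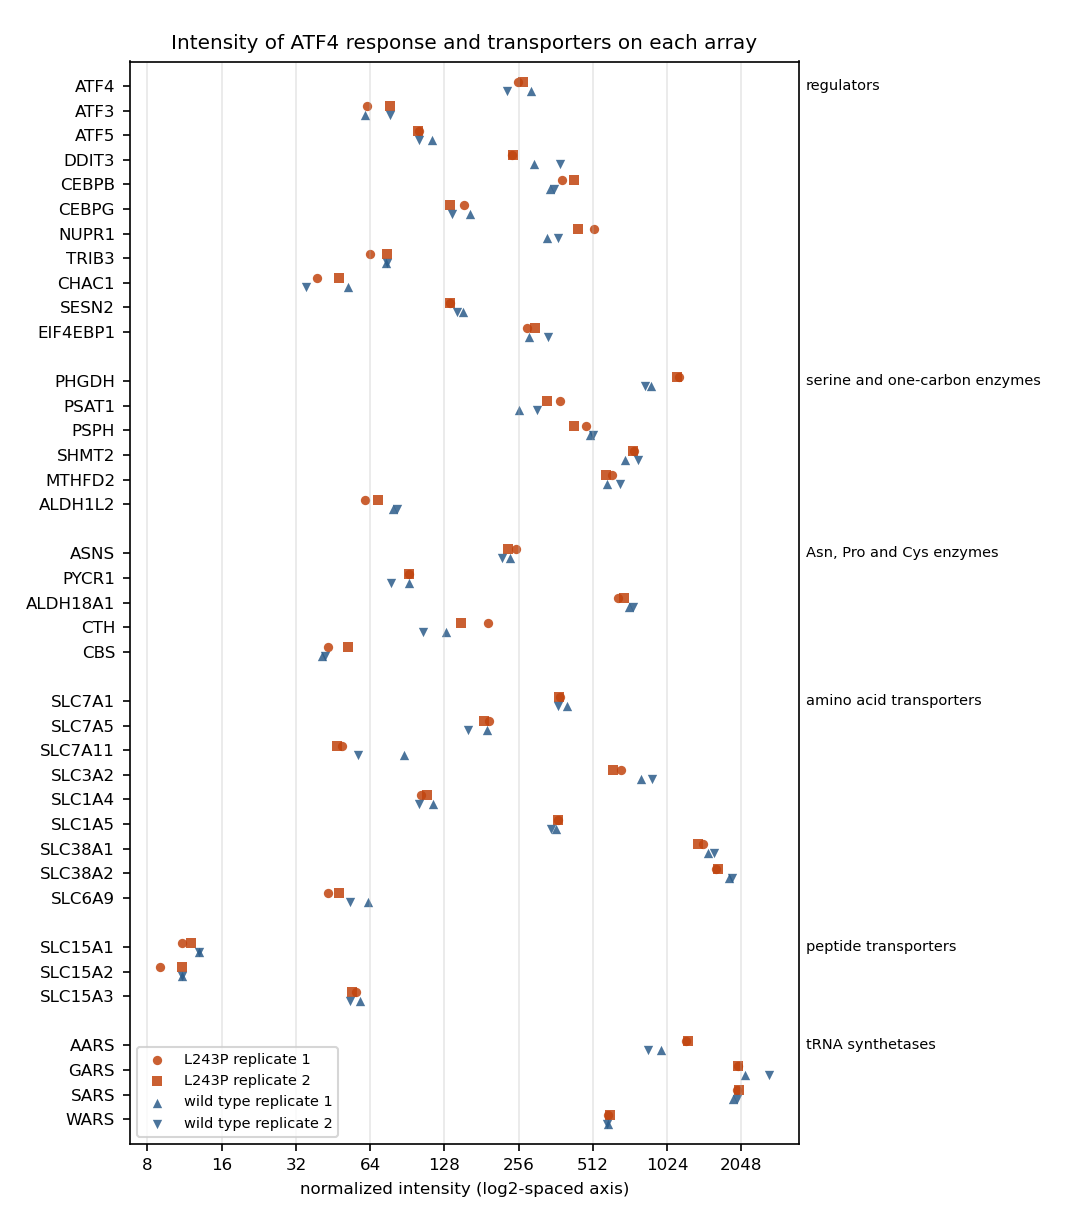
Normalized intensity (log2-spaced axis) of the 38 measured genes on each of the 4 arrays, grouped by role, with the L243P arrays drawn above the wild-type arrays of the same gene. The arrays of the clones overlap for 17 genes and are apart for 21, mostly by little; among those with a log2 change of at least 0.4 in size, PHGDH, AARS, NUPR1 and CTH lie higher in L243P, and DDIT3, SLC3A2 and SLC7A11 lie lower.

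**Figure D2:**
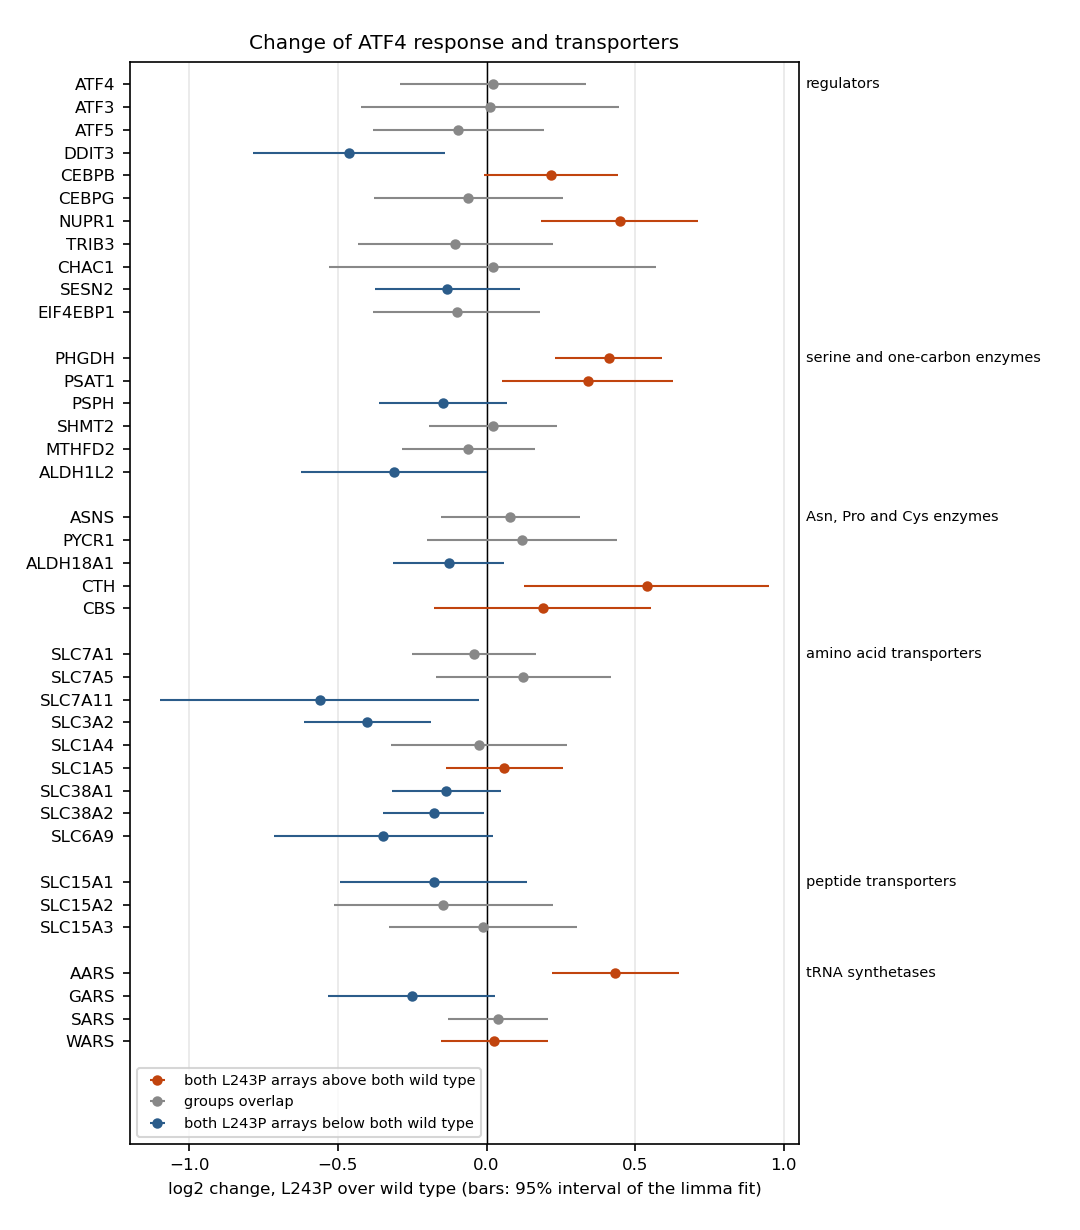
Log2 change of L243P over wild type with its 95% interval from the limma fit, for the same 38 genes. The interval includes 0 for 29 genes; colours mark whether both L243P arrays lay above, among or below the wild-type arrays.

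Arrays of the same clone correlated at 0.995 (L243P) and 0.993 (wild type) over all rows on the log2 scale, and arrays of different clones at 0.990 to 0.991. ANPEP was at 6439 and 7122 in L243P and at 8447 and 9103 in wild type (log2 change -0.37, SE 0.085, limma adjusted p = 0.16); the table does not separate the transcript of the construct from that of the endogenous gene. Of the glioma markers, VIM (6134 to 8297) and CD44 (1889 to 2240) were bright on all arrays, whereas SOX2, S100B, OLIG2 and PTPRZ1 were between 8 and 48, and GFAP was not analysed here. EGFR was at 195 and 194 in L243P and 270 and 260 in wild type, and NES at 104 and 112 in L243P and 62 and 74 in wild type; neither was called. The endothelial, leukocyte and epithelial markers that were measured (13 of 15) lay between 8 and 37 on every array.

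ATF4 binds DNA as a partner of C/EBP proteins at composite elements whose core letters are TGATGNAA, where N is any base. RefSeq promoter windows of assembly GRCh38.p14, from 250 bases before to 50 bases after an annotated start, were found for 31 of the 40 genes, in 52 windows. The core was searched on both strands, so that it reads TTNCATCA when it lies on the opposite strand. It occurred in 11 of the 52 windows (21.2%), each of a different gene, against 3.62% of all 35116 windows. The list was chosen by name around the ATF4 response, so this contrast may follow from that choice and is no test. The genes were ATF3, SLC1A4, GARS, ASNS, SLC3A2, SLC38A1, SLC7A1, CHAC1, AARS, CEBPG and SLC1A5. The stretches of 5 genes are shown. The arrays of ASNS, CHAC1 and SLC7A1 overlapped, those of AARS lay higher in L243P and those of SLC3A2 lower, and none was called. Capitals mark the core, and each sequence runs 5′ to 3′ on the strand of the gene.
ASNS (chr7:97872459-97872486, minus strand, core from base -68): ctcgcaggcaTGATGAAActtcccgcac
CHAC1 (chr15:40953252-40953279, plus strand, core from base -209): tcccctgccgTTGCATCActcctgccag
SLC7A1 (chr13:29595664-29595691, minus strand, core from base 8): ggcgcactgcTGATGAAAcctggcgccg
AARS (chr16:70289676-70289703, minus strand, core from base -187): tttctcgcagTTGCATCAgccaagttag
SLC3A2 (chr11:62881726-62881748, plus strand, core from base 38): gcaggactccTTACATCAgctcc

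Negative positions count bases before the annotated start, and positive ones count from the first transcribed base. The 11 genes with the core had a median log2 change of -0.02 (range -0.40 to 0.43), and the 19 measured genes with windows but no core had a median of -0.06 (range -0.46 to 0.54). A match describes letters in a window and is no evidence of binding.

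Among the transcription factors and feedback regulators, ATF4 mRNA was at 254 and 267 in L243P, against 287 and 229 in wild type. The wild-type arrays enclosed the L243P arrays, and the log2 change was 0.02 with a 95% interval of -0.29 to 0.34. ATF3, a stress-induced factor downstream of ATF4, was at 62 and 77 in L243P and 61 and 77 in wild type. ATF5, which is also translationally controlled, differed by -0.09 on the log2 scale with overlapping arrays, and so did CEBPG, a dimer partner of ATF4, by -0.06. CEBPB, another partner, lay higher in both L243P arrays (384 and 430, against 344 and 355 in wild type; log2 change 0.22, 95% interval -0.01 to 0.44).

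The targets most closely tied to stress signalling showed no common direction. DDIT3, which encodes the pro-apoptotic factor CHOP, averaged 242 ± 1.4 in L243P, against 336 ± 58.0 in wild type (SD, n = 2 each), where its arrays were at 295 and 377. Both L243P arrays lay below both wild-type arrays, with a log2 change of -0.46 (SE 0.13, limma adjusted p = 0.24). With wild-type replicate 1 left out the change was -0.64, and with replicate 2 left out it was -0.29. CHAC1, an enzyme that degrades glutathione and is induced through ATF4 and CHOP, was at 39 and 48 in L243P, against 52 and 35 in wild type, a log2 change of 0.02 with a wide interval of -0.53 to 0.57. TRIB3, a pseudokinase that dampens ATF4 and CHOP, was at 64 and 75 in L243P, against 74 and 75 in wild type (log2 change -0.10, 95% interval -0.43 to 0.22). CHAC1 was dim, and neither CHAC1 nor TRIB3 separated the clones. NUPR1, a small stress-induced chromatin protein, was at 515 and 445 in L243P, against 332 and 371 in wild type, and thus above wild type in both arrays (log2 change 0.45, SE 0.11, limma adjusted p = 0.18). SESN2, a stress-induced inhibitor of mTORC1 that senses leucine, and EIF4EBP1, a repressor of cap-dependent translation, differed by -0.13 and -0.10, both with intervals that include 0.

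The serine enzymes did not move as a unit. PHGDH, which commits a glycolytic intermediate to serine synthesis, was at 1147 and 1120 in L243P, against 877 and 829 in wild type. The arrays were tight in both clones, and the log2 change of 0.41 (SE 0.073, 95% interval 0.23 to 0.59) had the smallest adjusted p of the list without being called (limma adjusted p = 0.091). PSAT1, the transaminase of the next step, was at 376 and 332 in L243P, against 257 and 303 in wild type (log2 change 0.34, limma adjusted p = 0.34). PSPH, the phosphatase that completes the pathway, was lower in both L243P arrays instead, at 481 and 431 in L243P, against 498 and 510 in wild type (log2 change -0.15, 95% interval -0.36 to 0.07). The mitochondrial folate enzymes SHMT2, which converts serine to glycine, and MTHFD2, which oxidises the folate product, differed by 0.02 and -0.06, with overlapping arrays. ALDH1L2, which acts later in mitochondrial folate metabolism, was at 61 and 69 in L243P and 79 and 82 in wild type (log2 change -0.31, 95% interval -0.63 to 0.00).

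ASNS, which makes asparagine and is the best known readout of the amino acid response, did not separate the clones. Its intensity was 250 and 231 in L243P, against 235 and 220 in wild type, a log2 change of 0.08 with a 95% interval of -0.15 to 0.31. The proline enzymes ALDH18A1 and PYCR1 differed by -0.13 and 0.12. CTH, the enzyme that releases cysteine from cystathionine, was at 192 and 150 in L243P, against 130 and 105 in wild type. All L243P values exceeded the wild-type ones, and the log2 change of 0.54 was the highest of the list, but with a wide error (SE 0.17, limma adjusted p = 0.28). CBS, which makes cystathionine, was dim, at 43 and 52 in L243P and 41 and 42 in wild type. CBS has a near-identical annotated copy, so part of its signal may belong to that copy.

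Of the 9 amino acid transporters, 5 lay below wild type in both L243P arrays (55.6%, against 20.9% of all genes) and 1 above (11.1%, against 17.0%); none was called. The largest differences belonged to the pair that forms the cystine importer. SLC7A11, its transport subunit, was at 49 and 47 in L243P, against 88 and 57 in wild type. Its L243P values were close to the array medians, which lay between 46 and 50. The wild-type arrays differed from each other by more than the L243P arrays did from the lower of them, and the log2 change of -0.56 had an interval of -1.10 to -0.02 (limma adjusted p = 0.40). Leaving out wild-type replicate 1 gave -0.25, and leaving out replicate 2 of that clone gave -0.87. SLC3A2, the heavy chain that SLC7A11 and SLC7A5 share, was at 664 and 615 in L243P, against 805 and 885 in wild type (log2 change -0.40, SE 0.087, limma adjusted p = 0.14). The other light chain, SLC7A5, which imports leucine and other large neutral amino acids, showed no such difference, at 194 and 186 in L243P and 191 and 159 in wild type (log2 change 0.12, 95% interval -0.17 to 0.42). SLC7A5 has closely similar pseudogenes, so its signal may be shared.

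The SLC38 family carries glutamine and other neutral amino acids. SLC38A2, which is induced when amino acids are withdrawn, was at 1614 and 1653 in L243P, against 1816 and 1879 in wild type (log2 change -0.18, 95% interval -0.35 to -0.01, limma adjusted p = 0.40). SLC38A1 was at 1436 and 1362 in L243P and 1493 and 1579 in wild type, a log2 change of -0.13. The glycine transporter SLC6A9 was dim, at 43 and 48 in L243P and 63 and 53 in wild type (log2 change -0.35, 95% interval -0.71 to 0.02). SLC7A1 (arginine and lysine), SLC1A4 (alanine, serine and cysteine) and SLC1A5 (glutamine) differed by -0.04, -0.02 and 0.06.

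The 95% intervals of the 3 measured peptide transporters all included 0. SLC15A1 and SLC15A2, the proton-coupled carriers of di- and tripeptides, were between 9 and 13 on all 4 arrays (log2 changes -0.18 and -0.14), with SLC15A1 at 11 and 12 in L243P and 13 and 13 in wild type. These probe sets were at least as bright as only 13.5% to 21.7% of the probe sets. Detection calls were not used here, and such dim values may be background. The lysosomal carrier SLC15A3 was at 56 and 54 in L243P and 58 and 53 in wild type.

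Among the tRNA synthetases, AARS, which charges alanine tRNA, was at 1222 and 1238 in L243P, against 970 and 855 in wild type. The L243P arrays were nearly equal and both above wild type (log2 change 0.43, SE 0.087, limma adjusted p = 0.12). GARS, for glycine, was at 1989 and 1983 in L243P and 2116 and 2643 in wild type (log2 change -0.25, 95% interval -0.53 to 0.03). SARS (serine) and WARS (tryptophan) differed by 0.04 and 0.03, with 95% intervals of -0.13 to 0.21 and -0.15 to 0.21. All 4 synthetases were bright, between 584 and 2643.

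The 7 genes with non-overlapping arrays and a log2 change of at least 0.4 in size were PHGDH, AARS, NUPR1 and CTH on the higher side and SLC3A2, DDIT3 and SLC7A11 on the lower side. PHGDH and AARS were called when only the brighter 50% of the rows were tested (limma adjusted p = 0.038 and 0.049), where 2 of the 34 genes of the list that remained were called (5.88%), against 3.68% of all genes in that setting. The median log2 change of the 20 genes around each in RefSeq order lay between -0.13 for SLC7A11 and 0.01, smaller in size than the change of each gene. In the authors' deposited table, which reports proportions of false positives (pfp) from a rank product test and selects at 0.15, the lowest pfp of a gene of this list was 0.398, for CTH, and none of the list entered the authors' gene summary.

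**Figure D3:**
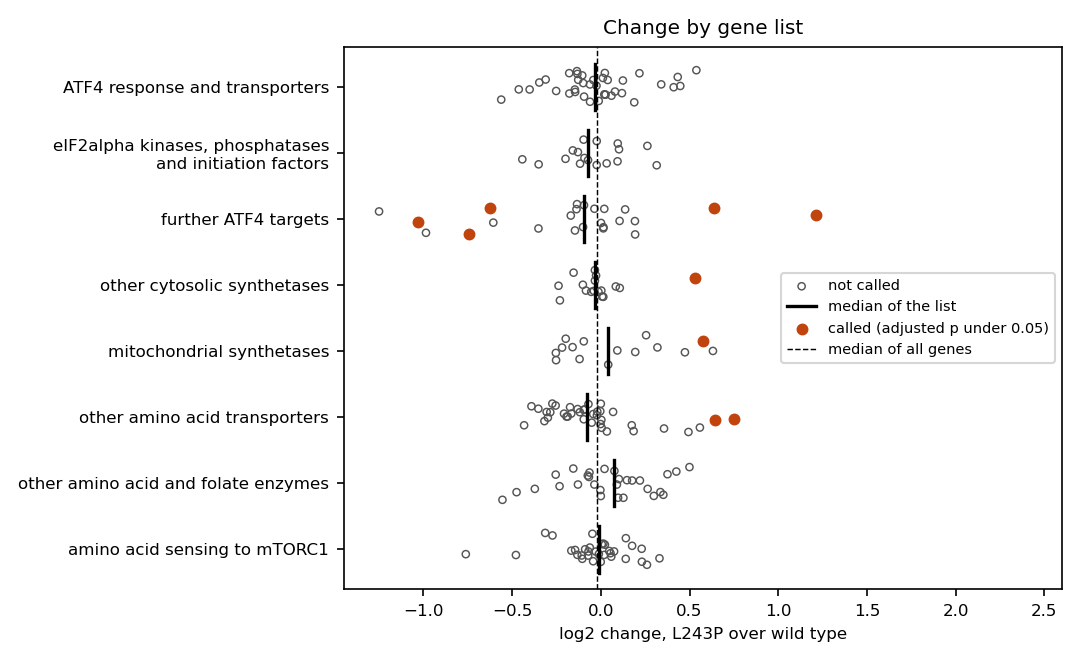
Log2 change of L243P over wild type for the 38 measured genes (top row) and for 7 further lists of the same pathway; filled points were called, black bars are list medians and the dashed line is the median of all genes (-0.02). The further ATF4 targets hold called genes on both sides, and the synthetase and transporter lists hold them on the higher side.

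Beyond the list stood 7 further sets of genes from the same pathway (182 different genes, 172 measured). They held 9 calls, 6 higher and 3 lower in L243P (5.23%, against 0.967% of all genes), with a median log2 change of -0.03. The sets were chosen with earlier results of these arrays known, so this share describes them and is no test. None of these 9 calls held with limma's default prior or with the replicate number as a block. No gene of the whole array was called in those settings, so this loss is not particular to the 9 genes. Further ATF4 targets (24 measured, median -0.10) held 2 called genes that rose and 3 that fell (20.8%, against 0.967% of all genes). Of the 24, 9 stood at an unadjusted p under 0.05 in limma (37.5%, against 13.5% of all genes), 2 higher and 7 lower in L243P. Both L243P arrays lay above both wild-type arrays for 4 (16.7%, against 17.0% of all genes) and below for 8 (33.3%, against 20.9%). HMOX1, heme oxygenase, which also answers to NRF2, rose to 1613 and 1826 in L243P, against 679 and 808 in wild type (log2 change 1.21, SE 0.11, limma adjusted p = 0.019). XPOT, which exports tRNA from the nucleus, rose to 1229 and 1192 in L243P, against 767 and 790 in wild type (log2 change 0.64, limma adjusted p = 0.033). The death receptor TNFRSF10B, a target of CHOP, fell to 273 and 279 in L243P, against 476 and 448 in wild type (log2 change -0.74, limma adjusted p = 0.033). VEGFA, an angiogenic factor, fell to 397 and 419 in L243P, against 603 and 654 in wild type (log2 change -0.62, limma adjusted p = 0.046). SESN3, a relative of SESN2, fell to 11 and 12 in L243P, against 24 and 23 in wild type (log2 change -1.03, limma adjusted p = 0.044), at dim intensities. STC2, a secreted stress protein, was at 131 and 112 in L243P and 240 and 346 in wild type and was not called (log2 change -1.25, limma adjusted p = 0.062). Of the remaining 18 targets, none was called. DDIT4, a stress-induced inhibitor of mTORC1, came closest, at 87 and 72 in L243P and 148 and 166 in wild type (log2 change -0.99, limma adjusted p = 0.052). GDF15 was at 119 and 123 in L243P and 212 and 160 in wild type (limma adjusted p = 0.20), and FGF21 and INHBE were at or below 33 on every array.

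Upstream of ATF4, none of 17 kinases, phosphatases and initiation factors was called (limma). At an unadjusted p under 0.05 stood 5 of them (29.4%, against 13.5% of all genes), 2 higher and 3 lower in L243P. The higher ones were EIF2S3, a subunit of eIF2 (log2 change 0.31, limma adjusted p = 0.24), and PPP1R15B (log2 change 0.26, limma adjusted p = 0.34). The amino acid sensor GCN2 (EIF2AK4) was at 298 and 271 in L243P and 301 and 305 in wild type. PPP1R15A (GADD34), the stress-induced subunit that returns eIF2alpha to its unphosphorylated state, was at 187 and 178 in L243P, against 252 and 244 in wild type (log2 change -0.44, limma adjusted p = 0.12). EIF2B2, a subunit of the exchange factor for eIF2, was at 693 and 720 in L243P and 827 and 981 in wild type (log2 change -0.35, limma adjusted p = 0.25).

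Among 17 other cytosolic synthetases, EPRS1, which charges glutamate and proline tRNA, rose to 974 and 986 in L243P, against 668 and 689 in wild type (log2 change 0.53, limma adjusted p = 0.046). The 20 genes around EPRS1 on chromosome 1 had a median log2 change of 0.20, and the part of the neighbourhood in this difference was not tested. The others were not called, and YARS1, for tyrosine, had the largest difference among those whose arrays did not overlap (703 and 667 in L243P, 751 and 869 in wild type, log2 change -0.24). Of 15 measured mitochondrial synthetases, CARS2, for cysteine, rose to 1666 and 1675 in L243P, against 1128 and 1110 in wild type (log2 change 0.58, limma adjusted p = 0.037).

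Of 38 measured further amino acid transporters, 2 were called higher and 0 lower in L243P (5.26%, against 0.967% of all genes). Both L243P arrays lay above wild type for 6 (15.8%, against 17.0% of all genes) and below for 11 (28.9%, against 20.9%). The list median was -0.08, against -0.02 over all genes. SLC7A8, a carrier of neutral amino acids that also pairs with SLC3A2, rose to 336 and 307 in L243P, against 195 and 187 in wild type (log2 change 0.75, SE 0.094, limma adjusted p = 0.043). SLC38A6, of the same family as the glutamine carriers, rose to 734 and 717 in L243P, against 447 and 484 in wild type (log2 change 0.64, limma adjusted p = 0.043). None of 29 measured further amino acid and folate enzymes was called (limma), with 9 at an unadjusted p under 0.05 (31.0%, against 13.5% of all genes). GLDC, which cleaves glycine, was dim, at 43 and 39 in L243P and 54 and 67 in wild type. None of 33 measured genes of amino acid sensing to mTORC1 was called (limma). At an unadjusted p under 0.05 stood 5 of them (15.2%, close to the 13.5% of all genes). FNIP2, a partner of folliculin, was at 225 and 208 in L243P, against 337 and 399 in wild type (log2 change -0.76, limma adjusted p = 0.058). The arginine sensor relative CASTOR2 was at 77 and 78 in L243P, against 109 and 107 in wild type (log2 change -0.48, limma adjusted p = 0.16); it has near-identical copies that may share its signal.

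**Figure D4:**
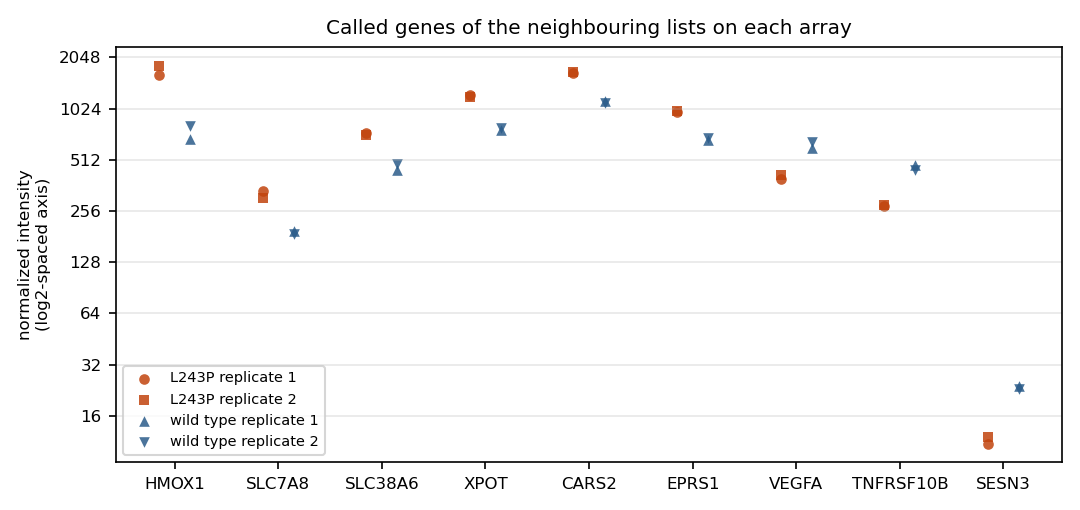
Normalized intensity (log2-spaced axis) on each array of the 9 called genes from the further lists of the pathway, with the L243P arrays left of the wild-type arrays. The arrays of a clone lie close together for each gene; HMOX1, SLC7A8, SLC38A6, XPOT, CARS2 and EPRS1 are higher and VEGFA, TNFRSF10B and SESN3 lower in L243P.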

How the data were processed

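RNA of 4 samples was measured on Affymetrix Human Gene ST arrays. The authors deposited intensity values on a linear scale, rounded to whole numbers, after RMA background correction, quantile normalization and RMA summarisation per probe set in Rosetta Resolver, per the deposited description. Its version and the build of the array annotation are not stated there. The deposited fold change and pfp are treated as a score, and the p-values the authors deposited were not used. Array medians lay between 46 and 50.

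Names in the table were matched to current symbols in RefSeq (GRCh38.p14), for 18208 of 19607 different names. The probe set with the highest mean stood for a gene, which left 19555 genes and, with the unnamed probe sets, 27533 rows; each measured gene of the list had a single probe set. Log2 intensities were compared with limma (version 3.58.1, R 4.3.3; trend = TRUE, robust = TRUE); p-values were adjusted over all rows by the Benjamini-Hochberg method, and the code was tested on simulated data. The members, gene lists and fit were chosen with earlier results of these data known. Values on every array are given for genes called, for those with non-overlapping arrays and a log2 change of at least 0.4 in size, and for ATF4, DDIT3, ASNS, CHAC1, TRIB3, SLC7A11, SLC3A2 and SLC7A5; of the other lists, for called genes and the 2 largest non-overlapping differences of each, except that some of these are not reported here. DDIT4, GDF15, FGF21, INHBE, EIF2AK4, EIF2S3, PPP1R15B and the other members' array values were added after they were seen. The number of arrays limits the precision. Rounding left 836 rows with no spread within either group.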

Additional observations from a re-analysis of the deposited data

How the results depend on the processing

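The count of called genes depended on the fit. It was 189 in the reported setting, 505 after median centring of the arrays (282 higher and 223 lower, against 84 and 105) and 440 among the brighter 50% of the rows (257 and 183), and 0 with limma's default prior and with the replicate block. The further pathway lists held 14 calls after median centring and 14 among the brighter rows, against 9, of which 9 and 8 were shared, and 0 with the default prior and the replicate block. Of the ATF4 list, 2 genes were called among the brighter rows and 0 in the other settings. The labels do not say whether equal replicate numbers share an experiment. Deviations of same-numbered arrays correlated at -0.16, which does not settle the pairing. A block with the numbers crossed, chosen after seeing the data, also gave 0 calls. Without any 1 of the 4 arrays, 0 genes were called, and 0 in the further lists too. The median change of the ATF4 list ranged from -0.093 (without wild-type replicate 2) to 0.0048 (without L243P replicate 1). Leaving out an array gave ranges of -0.14 to 0.19 for ATF4, -0.27 to 0.31 for CHAC1, -0.22 to 0.0097 for TRIB3 and -0.0079 to 0.26 for SLC7A5, each passing 0. Of the 12 genes refitted singly, the other 8 kept their direction in the 12 alternatives. ASNS lay between 0.02 and 0.14 when an array was left out. For the 12 genes, only median centring, the pseudocount and leaving out an array could change the estimate. The default prior, the brighter rows, the blocks, the mean of probe sets and the series matrix values left it as it was by construction. The series matrix values were identical, and a pseudocount of 16 and the mean of probe sets gave 178 and 182 calls. The cause of these shifts was not tested.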
